A study of Rattus norvegicus with 15 samples.

Results

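A set of 10 genes of the Wnt pathway was described across 15 RNA-seq libraries of primary rat chondrocytes, the cartilage-forming cells, isolated from the temporomandibular joint (the jaw joint). They were chosen by gene name: the ligands Wnt5a and Wnt5b, the secreted antagonists Frzb, Sfrp1, Sfrp2, Sfrp4, Dkk1, Dkk2 and Dkk3, and Axin2, which is neither a ligand nor secreted but an intracellular feedback gene of the same pathway. These 10 genes correspond to 11 of the 33717 loci in the count table, because the name Dkk1 is attached to 2 loci. There were 3 libraries in each of 5 groups, all from the same labelled cell type: cells with an siRNA against Ddx5 plus mechanical stress, cells with the Ddx5 siRNA, cells under mechanical stress, cells with a control siRNA (a short interfering RNA that serves as the siRNA reference), and a control labelled only nc, taken here to be without siRNA. The labels give no duration or mode of stress, no siRNA dose, and no age or strain, and no group combines the control siRNA with stress. They also leave unstated whether the libraries of a group are separate cultures or animals, so p-values here measure the spread between libraries, which may be technical.

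Wnt proteins are secreted, lipid-modified ligands that bind Frizzled receptors. In the canonical branch, Frizzled pairs with the co-receptors LRP5 or LRP6, beta-catenin escapes its destruction complex and, with TCF/LEF factors, switches on target genes, of which Axin2 is one of the most widely used readouts; WNT5A and WNT5B act mostly through other branches, with ROR2 among the receptors. Secreted frizzled-related proteins (the Sfrp genes and Frzb, also called Sfrp3) carry a Frizzled-like domain and bind Wnt ligands outside the cell, whereas Dickkopf-1 and -2 bind the LRP co-receptors, and Dickkopf-3 is a divergent relative without an established role there. In cartilage, Wnt signalling is known for its part in chondrocyte maturation and matrix breakdown, and FRZB has been linked to osteoarthritis in humans. The targeted gene, Ddx5, codes for an RNA helicase of the DEAD-box family.

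The promoter sequences of Axin2 and Sfrp2 are shown because Axin2 is the pathway's feedback target and Sfrp2 was the member whose level differed between groups. RefSeq (build GRCr8) gave a window of 300 bases, 250 before and 50 from the annotated start, for 5 of the 10 genes. Axin2 lay at chr10:94398535-94398834 on the plus strand, and capitals mark CTTTGAT and CTTTGAA, letters that TCF/LEF factors recognise. Sfrp2 lay at chr2:171387286-171387585 on the plus strand, and capitals mark the 50 bases from its start onward.
Axin2: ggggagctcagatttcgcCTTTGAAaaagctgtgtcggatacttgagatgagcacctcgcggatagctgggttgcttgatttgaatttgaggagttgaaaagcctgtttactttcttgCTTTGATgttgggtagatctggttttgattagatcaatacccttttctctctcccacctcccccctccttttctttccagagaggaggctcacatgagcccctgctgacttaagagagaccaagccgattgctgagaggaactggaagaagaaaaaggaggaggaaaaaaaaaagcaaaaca
Sfrp2: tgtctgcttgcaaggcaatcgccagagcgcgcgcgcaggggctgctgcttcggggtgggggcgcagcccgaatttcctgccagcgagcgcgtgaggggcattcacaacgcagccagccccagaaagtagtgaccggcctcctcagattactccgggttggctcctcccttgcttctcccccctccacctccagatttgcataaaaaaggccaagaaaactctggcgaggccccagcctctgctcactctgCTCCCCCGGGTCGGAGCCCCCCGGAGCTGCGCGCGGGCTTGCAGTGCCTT
The Axin2 window held CTTTGAA at base 19 and CTTTGAT at base 119, counted from its 5′ end, as printed, and neither overlapped the other. Searched on both strands, CTTTGAT occurs in 3.63% and CTTTGAA in 5.4% of all 33469 windows of this length in the table. Of the 5 windows, that of Dkk1 held CTTTGAA, while those of Sfrp2, Wnt5a and Frzb held neither motif. These are matches of letters and no measurement of binding.

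Total counts per library lay between 14309005 and 16219775, and 14147 loci had enough counts to be tested. Values are given as CPM (a gene's count relative to its library's size after TMM scaling), and tests are edgeR's quasi-likelihood F test on all 15 libraries, with a gene called at an adjusted p under 0.05 over all genes tested. Against the cell type label, Col11a1 (1280 to 2390 CPM over the libraries) and Acan (73.4 to 367 CPM) were present, Col2a1, the main cartilage collagen gene, was low at 0.327 to 4.49 CPM, and Matn1 had counts in 2 of 15 libraries. Col1a1, typical of fibroblasts, stood at 29900 to 72900 CPM. Of the same fibroblast list, Col1a2, Col3a1 and Thy1 had at least 488 CPM and Pdgfra at least 60.3 CPM in each library. Dcn (1.37 to 11.9 CPM) and Lum (1.8 to 7.91 CPM) of that list were low. Markers of other cells were mixed. Ptprc (leukocytes) had 1 count in all libraries together and Cdh5 (endothelium) and Myog (muscle) had 0. From the same leukocyte and muscle lists, however, Cd14 (16.8 to 41.2 CPM), Myh1 (6.16 to 17.1 CPM) and Acta1 (0.063 to 14.6 CPM) had counts in all 15 libraries. From the endothelial list Tek also had counts in all 15 libraries, at a low 0.124 to 0.861 CPM, and Kdr in 5. The targeted gene Ddx5 had 221, 252 and 207 CPM with the Ddx5 siRNA, against 397, 398 and 360 CPM with the control siRNA (log2 fold change −0.77, SE 0.13, edgeR adjusted p = 0.023), and 164, 241 and 194 CPM with the Ddx5 siRNA plus stress, against 360, 416 and 418 CPM under stress (−1.0, SE 0.13, edgeR adjusted p = 0.014). Leaving out Ddx5 siRNA replicate 2, replicate 3 or any control siRNA library ended the first of these calls, and leaving out replicate 3 of either stressed group ended the second (highest edgeR adjusted p 0.15 and 0.12). Fitting the compared groups alone also ended the second call (edgeR adjusted p = 0.46), and with a replicate block in such fits both ended (0.11 and 0.053). In the control Ddx5 had 545, 511 and 485 CPM, above each control siRNA and each stress library. Against the control it differed by −0.42 with the control siRNA (edgeR adjusted p = 0.079) and −0.37 under stress (edgeR adjusted p = 0.18). Neither passed, and such downward separation held for 15.4% and 10.4% of genes tested. The stress group carries no siRNA, so siRNA treatment and Ddx5 knockdown cannot be told apart in the second call.

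Among the members, an antagonist dominated. On the authors' FPKM scale, which divides counts by gene length and allows levels of different genes to be set side by side, Sfrp2 averaged 256 ± 76 FPKM in the control (SD, n = 3) and Dkk3 105 ± 9.2 FPKM, and over all 15 libraries their mean levels were at the percentiles 96.8 and 94.2 of the genes tested. Axin2 followed at 9.13 ± 4.2 FPKM and Wnt5a at 4.67 ± 1.2 FPKM, and the libraries of these neighbours overlapped. Wnt5b (1.72 ± 0.59 FPKM), Sfrp4 (1.54 ± 0.11 FPKM) and Sfrp1 (0.999 ± 0.87 FPKM) were low and overlapped one another. The order at the top was not the same everywhere: with the control siRNA Sfrp2 averaged 86.3 ± 10 FPKM and Dkk3 92.2 ± 11 FPKM, and their libraries overlapped.

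The other 3 members were hardly detected and were not tested. Frzb, the antagonist gene linked to human osteoarthritis, had at most 5 reads in a library and 36 reads in all, spread over 8 of 15 libraries. Its only group with reads in each library was the Ddx5 siRNA group, with 5, 5 and 5 reads, against 0, 3 and 0 reads with the control siRNA. Dkk1 had 4 reads, all in stress replicate 3, and its second locus had 0. Dkk2 had 3 reads, all in Ddx5 siRNA plus stress replicate 3. A level of 3 reads corresponds to 0.178 to 0.218 CPM, so differences at this level were not detectable at this depth.

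**Figure D1:**
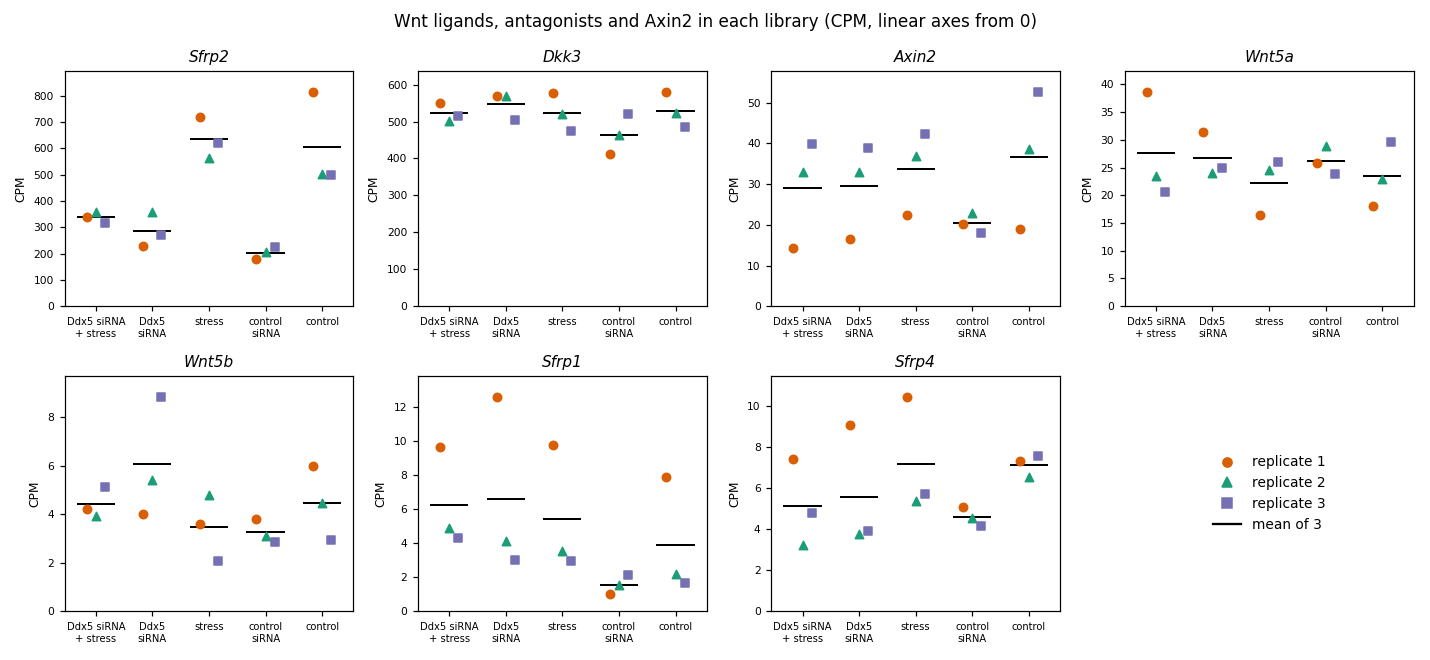
CPM of the 7 tested members in each library, by group on the horizontal axis and with linear vertical axes from 0. Point shapes and colours give the replicate number and lines the mean of 3 libraries. Sfrp2 lies below 360 CPM in all siRNA groups and at 499 CPM or more in both groups without siRNA.

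The antagonist gene Sfrp2 (ENSRNOG00000009465, chromosome 2, 182723854 to 182731764, plus strand, deposited coordinates with no build given) showed the clearest difference between groups. It had 179, 205 and 226 CPM with the control siRNA, against 813, 503 and 499 CPM in the control. The groups did not overlap, and each control siRNA library was below every control library, as held for 15.4% of genes tested. Sfrp2 fell to 33.6% of the control level (log2 fold change −1.57, SE 0.20, 95% interval −1.99 to −1.16, edgeR adjusted p = 9e-04, n = 3 per group). It was the only call among the 7 tested members in the comparison of control siRNA with control, in which 3.87% of all genes tested were called (1.77% lower). The call held with each of the 6 libraries left out in turn.

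The Ddx5 siRNA groups also stood below the groups without siRNA. Sfrp2 had 227, 359 and 272 CPM with the Ddx5 siRNA and 339, 358 and 316 CPM with the Ddx5 siRNA plus stress, while stressed cells without siRNA held 719, 563 and 619 CPM. Over all libraries, the 9 with an siRNA ranged from 179 to 359 CPM and the 6 without from 499 to 813 CPM, with no overlap. Of genes tested, 0.269% were lower in all 9 than in each of the 6, and Sfrp2 was the only member that was. This split includes the control siRNA and control libraries of the call above, so it is not independent of that call. The Ddx5 siRNA plus stress group was at 53.3% of the stress group (log2 fold change −0.91, SE 0.19, 95% interval −1.32 to −0.50), without overlap (7.32% of genes tested), which did not pass in edgeR (adjusted p = 0.13, with 0.0283% of all genes tested called) but did in DESeq2 (adjusted p = 0.0016). A comparison of the Ddx5 siRNA with the control, added after the values were seen, gave −1.08 (SE 0.19, edgeR adjusted p = 0.075), again without overlap, as held for 7.37% of genes tested; 0.0212% were called.

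Within the siRNA groups without stress the direction was the other way. Each Ddx5 siRNA library was above each control siRNA library in Sfrp2, at 227 against 226 CPM for the closest pair, with a log2 fold change of 0.49 (SE 0.19, 95% interval 0.08 to 0.90) that did not pass (edgeR adjusted p = 0.23). The effects of the Ddx5 siRNA with and without stress thus had opposite signs for Sfrp2, and they differed by −1.40 (SE 0.27, 95% interval −1.98 to −0.82), which did not pass over all genes (edgeR adjusted p = 0.14, and adjusted p = 0.00044 in DESeq2). The reference of the effect under stress carries no siRNA and that of the other carries the control siRNA, so siRNA treatment and Ddx5 knockdown cannot be told apart in this difference. edgeR called 0 of 14147 genes in this test (1179 at an unadjusted p under 0.05) and DESeq2 called 118.

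Cell type markers also differed with siRNA treatment, in both directions within a list. The summed level of 7 fibroblast markers, mostly Col1a1, was 71300 to 86200 CPM with the control siRNA, against 37500 to 43300 CPM in the control. The sums were 51000 to 80600 CPM with the Ddx5 siRNA and 48500 to 80500 CPM with the Ddx5 siRNA plus stress, against 41400 to 45200 CPM under stress. With the control siRNA Col1a1 rose by 0.91 on the log2 scale (edgeR adjusted p = 0.022). Thy1 (1.24), Col1a2 (1.05), Col3a1 (0.99) and Lum (0.81) of that list also had positive values, which did not pass. Dcn (−0.91) and Pdgfra (−0.47) of that list had negative values that did not pass either. The sum of 10 chondrocyte markers, mostly Col11a1, was 2320 to 2740 CPM with the control siRNA and 1720 to 2210 CPM in the control. None of the 6 chondrocyte markers tested passed with the control siRNA against the control (lowest edgeR adjusted p 0.13). Col11a1 (0.33) and Acan (0.95) had positive log2 fold changes there. Those of Col2a1 (−1.79), Comp (−0.61), Sox9 (−0.32) and Hapln1 (−0.12) were negative. Of the synovial lining list, Prg4, the lubricin gene, fell by 1.91 (edgeR adjusted p = 0.043), whereas Htra1 had a log2 fold change of 0.94 that did not pass (edgeR adjusted p = 0.08), and the list's sum was 2260 to 2590 CPM with the control siRNA, against 1220 to 1300 CPM in the control. Myh1, of the muscle list, fell by 0.86 (edgeR adjusted p = 0.0083), while Acta1 (1.03) and Des (−0.12) of that list did not pass. Myh1 was also called lower under stress, without siRNA (−0.81, edgeR adjusted p = 0.017) and with the Ddx5 siRNA (−0.83, edgeR adjusted p = 0.014). With the Ddx5 siRNA it was called higher than with the control siRNA (1.14, edgeR adjusted p = 0.018). Against the control that group differed by 0.28, which did not pass (edgeR adjusted p = 0.6). Sox9, of the chondrocyte list, was also called lower under stress without siRNA (−0.92, edgeR adjusted p = 0.049). The same held under stress with the Ddx5 siRNA (−0.94, edgeR adjusted p = 0.045). The other chondrocyte markers tested did not pass in these stress comparisons. The part of these shifts in the Sfrp2 difference was not tested, and in such cultures fewer cells of a type and less RNA per cell cannot be told apart.

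**Figure D2:**
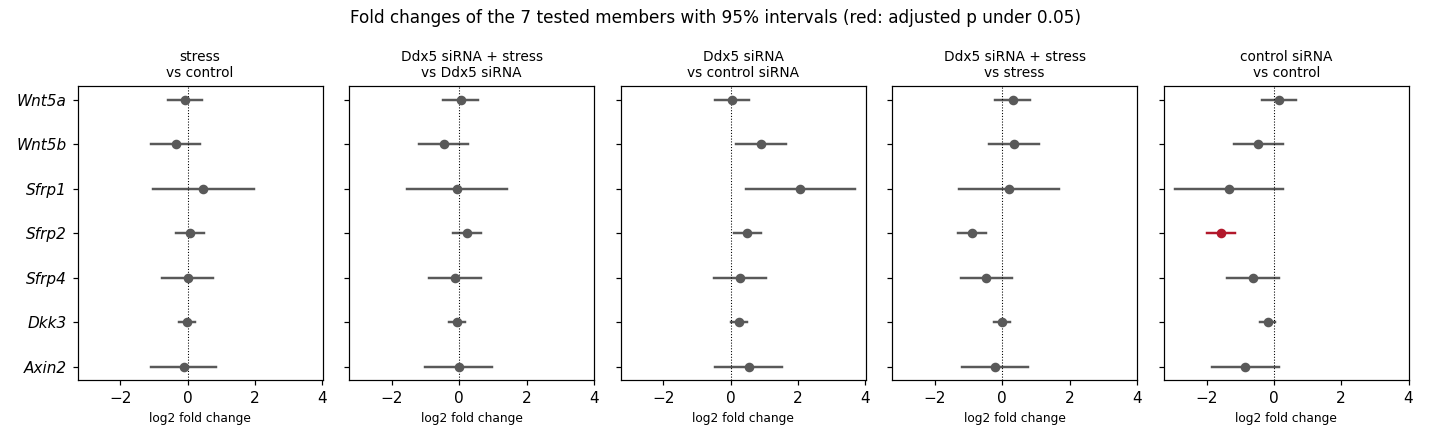
Log2 fold changes of the 7 tested members (rows) in the 5 comparisons of group pairs (panels), as points with 95% intervals. Red marks the call of Sfrp2 for control siRNA against control, and the intervals of Axin2 and Sfrp1 are the widest in each panel.

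Mechanical stress gave no call among the members. In cells without siRNA 0 of 7 passed, where 1.41% of all genes tested were called, and 0 of 7 were at an unadjusted p under 0.05 in edgeR (15.1% of all genes tested) or passed in DESeq2. The median log2 fold change of the members was −0.02, against −0.00 over all genes. In cells with the Ddx5 siRNA, stress likewise called 0 of 7 (background 1.19%), with a median of −0.07. In the fit without a replicate block, the precision of this differed between genes. For Dkk3, with 577, 519 and 473 CPM under stress, against 579, 524 and 484 CPM in the control, the 95% interval of the log2 fold change was −0.25 to 0.22. For Sfrp2 it was −0.34 to 0.47 and for Wnt5a −0.59 to 0.44, whereas for Sfrp1 it reached from −1.04 to 1.97. Within same-numbered pairs of stress and control libraries, Sfrp1 was higher under stress in 3 of 3 and Dkk3 lower in 3 of 3, as 49.8% of genes tested went one way in all pairs, and the other 5 members tested went both ways. With the replicate block Sfrp1 had a log2 fold change of 0.54 (edgeR adjusted p = 0.54), and 0.57 in a blocked fit of only these groups (edgeR adjusted p = 0.12). The members' stress effects with and without the Ddx5 siRNA differed by −0.53 (Sfrp1) to 0.17 (Sfrp2), none of which passed (edgeR adjusted p = 1.0 for each); edgeR called 0 genes of all in that test (441 at an unadjusted p under 0.05) and DESeq2 called 4.

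Wnt5a, the ligand that signals mostly outside the canonical branch, varied little between groups. It had 16.5, 24.5 and 26.0 CPM under stress, against 18.1, 22.9 and 29.6 CPM in the control. With the control siRNA it had 25.9, 28.8 and 23.8 CPM. The Ddx5 siRNA gave 31.5, 24.0 and 24.9 CPM and, with stress, 38.6, 23.4 and 20.6 CPM. All groups overlapped, and the largest of its log2 fold changes between group pairs was 0.30 (SE 0.24, edgeR adjusted p = 0.65), for the Ddx5 siRNA plus stress against stress.

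The Ddx5 siRNA compared with the control siRNA changed no member past the threshold, and 0.396% of all genes tested were called. All 7 members had a positive log2 fold change, with a median of 0.49 against 0.01 over all genes tested, and 4 of 7 were at an unadjusted p under 0.05, as were 15.5% of all genes tested. Sfrp1, an antagonist, had 12.6, 4.16 and 3.0 CPM with the Ddx5 siRNA, against 1.04, 1.52 and 2.12 CPM with the control siRNA. These groups did not overlap, as held upward for 10.7% of genes tested, and replicate 1 of the Ddx5 siRNA was far above the others. The log2 fold change was 2.06 (SE 0.74, 95% interval 0.45 to 3.68, edgeR adjusted p = 0.21, and adjusted p = 0.043 in DESeq2). Wnt5b, the ligand closest in sequence to Wnt5a, had 4.03, 5.40 and 8.81 CPM with the Ddx5 siRNA, against 3.79, 3.12 and 2.85 CPM with the control siRNA (0.90, SE 0.35, edgeR adjusted p = 0.23), again without overlap. For Dkk3, with 569, 568 and 504 CPM with the Ddx5 siRNA, against 411, 463 and 520 CPM with the control siRNA, the groups overlapped (0.24, SE 0.11, edgeR adjusted p = 0.32).

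The choice of reference matters for these values. Against the control without siRNA, Ddx5 siRNA cells differed by 0.74 (SE 0.69) in Sfrp1, 0.44 (SE 0.34) in Wnt5b and 0.05 (SE 0.11) in Dkk3, each with overlapping groups. In the comparison of control siRNA with control, 6 of 7 members had a negative log2 fold change (median −0.63, against −0.00 over all genes tested), including Sfrp1 (−1.33, SE 0.74), Axin2 (−0.85, SE 0.45) and Sfrp4 (−0.63, SE 0.36), which did not pass (edgeR adjusted p = 0.34, 0.32 and 0.35). Of these, Sfrp4 had groups that did not overlap, as held downward for 15.4% of genes tested. Both comparisons share the control siRNA libraries. Under stress, the Ddx5 siRNA called 0 of 7 members (background 0.0283%), with 3 positive and 4 negative values and a median of −0.00 (0.03 over all genes tested).

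Axin2, Sfrp1 and Sfrp4 differed between replicate numbers in most groups. Axin2, the feedback gene, had 14.2, 33.1 and 39.9 CPM in replicates 1, 2 and 3 with the Ddx5 siRNA plus stress. The values were 16.5, 33.0 and 38.9 CPM with the Ddx5 siRNA and 22.3, 36.9 and 42.2 CPM under stress. They were 20.2, 22.9 and 17.9 CPM with the control siRNA and 19.0, 38.5 and 52.6 CPM in the control. Replicate 1 was the lowest library in 4 of 5 groups, at 0.389 to 0.564 times the mean of the other libraries, and at 0.992 times with the control siRNA.

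Sfrp1 showed the opposite arrangement. It had 9.65, 4.87 and 4.30 CPM with the Ddx5 siRNA plus stress, 9.75, 3.55 and 2.96 CPM under stress and 7.90, 2.21 and 1.68 CPM in the control, beside the Ddx5 siRNA and control siRNA values above. Replicate 1 was the highest in 4 of 5 groups, at 2.1 to 4.06 times the mean of the others, and the lowest with the control siRNA, at 0.573 times. Sfrp4, a further antagonist, had 7.43, 3.22 and 4.80 CPM with the Ddx5 siRNA plus stress, 9.06, 3.79 and 3.94 CPM with the Ddx5 siRNA and 10.4, 5.36 and 5.73 CPM under stress. It had 5.09, 4.57 and 4.17 CPM with the control siRNA and 7.30, 6.56 and 7.55 CPM in the control, where replicate 1 did not stand apart. In Dkk3 replicate 1 was also the highest in 4 of 5 groups, by at most 1.16 times the mean of the others.

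**Figure D3:**
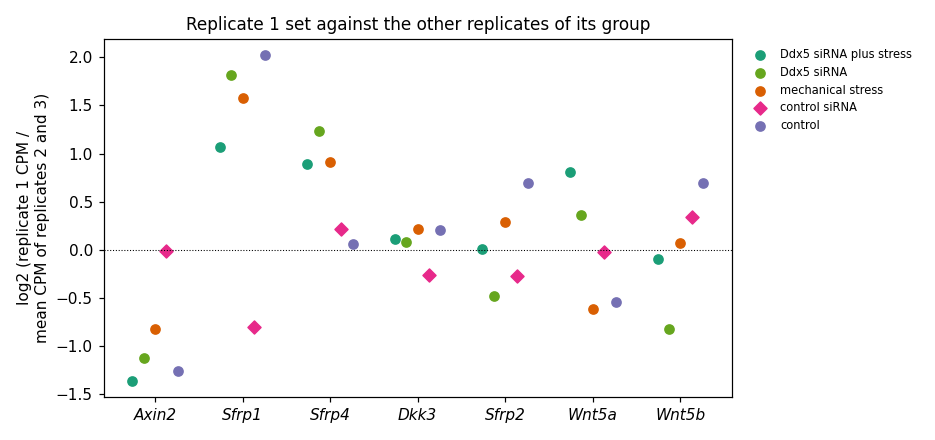
Log2 ratio of the CPM in replicate 1 to the mean CPM of replicates 2 and 3 (vertical axis) for each tested member (horizontal axis), with 1 point per group and diamonds for the control siRNA. For Axin2 the 4 other groups lie below 0 and for Sfrp1 above 0, while Sfrp2, Wnt5a and Wnt5b scatter on both sides.

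A joint test of the replicate number in the 15-library edgeR fit, added after these values were seen, called none of the 7 members and 1.43% of all genes tested (edgeR adjusted p = 0.052 for Axin2, 0.067 for Sfrp1 and 0.09 for Sfrp4). Without the control siRNA libraries, a choice also made after the values were seen, 3 of 7 members and 9.21% of all genes tested were called. The group left out was the one where replicate 1 of Axin2 (0.992 times the mean of the others) and Sfrp1 (0.573 times) did not follow the pattern. This fit is therefore no independent test of that pattern. In that fit replicates 2 and 3 were above replicate 1 in Axin2 by 0.98 and 1.27 on the log2 scale (edgeR adjusted p = 6e-05), below it in Sfrp1 (−1.48 and −1.79, edgeR adjusted p = 0.00028) and below it in Sfrp4 (−0.91 and −0.67, edgeR adjusted p = 0.032). Sfrp2 (edgeR adjusted p = 0.72), Wnt5a (0.94), Wnt5b (0.98) and Dkk3 (0.16) did not pass. What a replicate number stands for is not given in the labels, and adding it to the model as a block changed no call among the members.

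Of the rest of the pathway, 118 genes were listed, 112 were found in the table and 86 were tested. Of 17 other Wnt ligand genes 6 were tested, the highest in FPKM being Wnt9a at a mean of 4.33 FPKM over the 15 libraries. In CPM, which is not divided by gene length, Wnt9a (mean 2.66) was below Wnt11 (5.59), Wnt7b (5.01), Wnt4 (4.36) and Wnt10b (3.34). Several receptor genes were more abundant: Fzd1 averaged 180 FPKM, Fzd2 71.3 FPKM, Lrp5 26.4 FPKM, Ror2 13.8 FPKM and Lrp6 9.35 FPKM. Other receptor genes were below Wnt9a in FPKM: Fzd4 (3.16 FPKM), Lrp4 (2.65 FPKM), Ror1 (1.09 FPKM), Fzd5 (1.07 FPKM), Fzd3 (0.99 FPKM) and Fzd8 (0.364 FPKM). In mean CPM, Fzd4 (21.8), Lrp4 (21), Ror1 (5.7) and Fzd3 (2.74) were above Wnt9a, and Fzd5 (2.32) and Fzd8 (1.1) below it. Wls, which carries Wnt proteins to the cell surface, averaged 72.0 FPKM and Rspo1, a secreted enhancer of Wnt signalling, 42.2 FPKM. The median log2 fold change of the 86 genes lay between −0.06 and 0.12 in the 5 comparisons of group pairs. The 17 tested genes widely used as beta-catenin targets had medians of −0.36 under stress and −0.39 for stress added to the Ddx5 siRNA. Theirs were −0.38 for control siRNA against control, 0.28 for Ddx5 siRNA against control siRNA and 0.20 for Ddx5 siRNA plus stress against stress. The 6 other Wnt ligands tested had 0.66 for Ddx5 siRNA against control siRNA. These list medians were not tested.

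Under stress 2 of 86 pathway genes fell and 0 rose against the control, in the fit without a replicate block. Both were from the list of genes widely used as beta-catenin targets, of which 17 were tested. Over all genes tested 0.346% fell. Replicate numbers pair the libraries of these groups (correlations of 0.27 to 0.4), and this fit leaves the pairing out. Wisp1, a secreted matricellular protein gene also called Ccn4, had 40.2, 33.9 and 36.3 CPM under stress, against 60.0, 50.9 and 54.1 CPM in the control (log2 fold change −0.58, SE 0.12, edgeR adjusted p = 0.026). Bambi, which encodes a decoy receptor of TGF-beta and BMP signalling, had 2.32, 3.43 and 3.02 CPM under stress, against 7.54, 7.02 and 6.83 CPM in the control (−1.29, SE 0.30, edgeR adjusted p = 0.049). In both genes each stressed library was below each control library, as in 10.4% of genes tested. The Bambi call ended whichever of the 6 libraries was removed (edgeR adjusted p 0.097 to 0.2), and that of Wisp1 ended without replicate 1 or 3 of the control or 2 or 3 of the stress group (highest 0.12).

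The same list held the pathway genes that differed between the Ddx5 siRNA and the control siRNA, where 2 of 86 rose and 0 fell; over all genes tested 0.233% rose. Wisp1 had 75.0, 58.1 and 56.4 CPM with the Ddx5 siRNA, against 36.5, 38.9 and 36.2 CPM with the control siRNA (0.76, SE 0.12, edgeR adjusted p = 0.018). Nkd2, an inhibitor of canonical signalling that binds Dishevelled, had 130, 222 and 181 CPM with the Ddx5 siRNA, against 91.1, 96.9 and 118 CPM with the control siRNA (0.80, SE 0.16, edgeR adjusted p = 0.048). Each Ddx5 siRNA library was above each control siRNA library in both genes, as in 10.7% of genes tested. Either call ended when replicate 2 or 3 of the Ddx5 siRNA or any control siRNA library was removed (highest edgeR adjusted p 0.12 for Wisp1 and 0.28 for Nkd2). Both also ended in a fit of only these groups (edgeR adjusted p = 0.053 for Wisp1 and 0.12 for Nkd2) and in such a fit with a replicate block (0.16 and 0.18). Against the control without siRNA, the Ddx5 siRNA cells differed by 0.20 (SE 0.12) in Wisp1 and −0.03 (SE 0.16) in Nkd2.

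With the control siRNA itself, 3 of 86 pathway genes fell and 1 rose against the control, a share near the 3.87% called over all genes tested (1.77% lower). Nkd2 fell to 91.1, 96.9 and 118 CPM, against 163, 181 and 199 CPM in the control (−0.83, SE 0.16, edgeR adjusted p = 0.012). Wisp1 fell by 0.57 (SE 0.12, edgeR adjusted p = 0.017). Fst, which encodes the activin antagonist follistatin, had 21.2, 23.1 and 23.6 CPM with the control siRNA, against 52.4, 35.7 and 45.0 CPM in the control (−0.97, SE 0.21, edgeR adjusted p = 0.023). Ror2, the receptor of Wnt5a, rose to 64.3, 77.1 and 70.5 CPM, against 33.6, 46.7 and 42.8 CPM in the control (0.79, SE 0.14, edgeR adjusted p = 0.0066). The Ror2 call held with each library left out, while that of Nkd2 was lost without control replicate 3 or control siRNA replicate 1 or 2, and those of Wisp1 and Fst without control replicate 1 or 3 or any control siRNA library (highest edgeR adjusted p 0.069, 0.079 and 0.099).

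**Figure D4:**
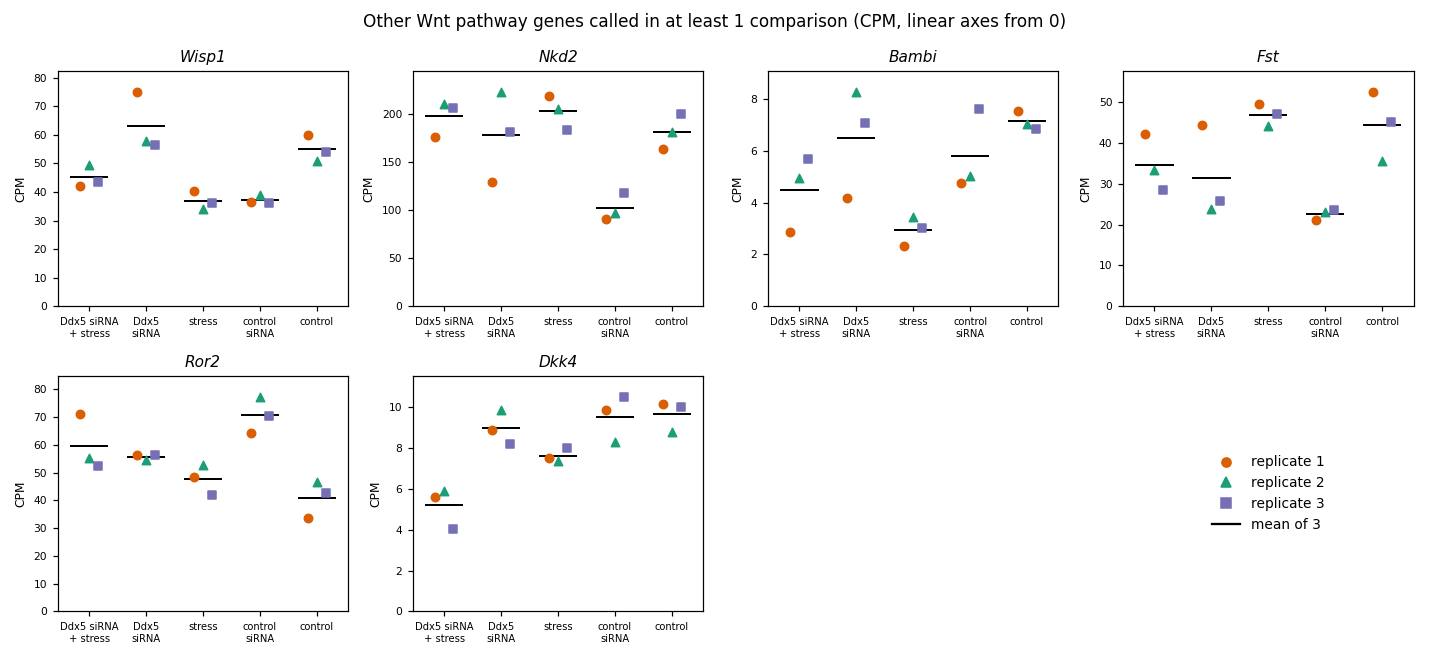
CPM in each library of the 6 other Wnt pathway genes called in at least 1 comparison, by group, with linear vertical axes from 0. Shapes and colours give the replicate number and lines the mean of 3 libraries; the control siRNA libraries of Nkd2 lie between 91.1 and 118 CPM, below every other library.

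With stress added to the Ddx5 siRNA 1 of 86 pathway genes fell, the antagonist gene Dkk4, a share near the 1.19% called over all genes tested (0.141% lower). This count is also from the fit without a replicate block, though replicate numbers pair these libraries (correlations of 0.25 to 0.59). Its values were as follows. It had 5.61, 5.90 and 4.05 CPM with stress, against 8.86, 9.87 and 8.19 CPM with the Ddx5 siRNA alone (−0.79, SE 0.17, edgeR adjusted p = 0.036), with no overlap, as held downward for 6.53% of genes tested. The call ended when any Ddx5 siRNA library, or replicate 1 or 3 of the group with stress, was removed (highest edgeR adjusted p 0.18), without the low-count filter (0.061) and in a fit of only these groups (0.33). Without siRNA, Dkk4 had 7.49, 7.35 and 8.0 CPM under stress, against 10.2, 8.77 and 10 CPM in the control (−0.34, SE 0.17, edgeR adjusted p = 0.37), and the difference between both stress effects did not pass (−0.45, SE 0.24, edgeR adjusted p = 1.0). The Ddx5 siRNA under stress, against stress, called 0 of the 86 genes.

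The genes whose log2 CPM was most like that of a member over the 15 libraries, which share their groups and replicate numbers, are given as a description. For Sfrp2 they were Lamp1 (Pearson's r = 0.923, Spearman's rho = 0.957) and Cd63 (0.919 and 0.929), which encode proteins of lysosomes and late endosomes. For Axin2 they were Kat7, a histone acetyltransferase gene (0.958 and 0.939), and Akr1b8, an aldo-keto reductase gene (0.946 and 0.936). For Sfrp1 they were Ppap2b, a lipid phosphate phosphatase gene (0.972 and 0.968), and Mgp, which encodes the mineralization inhibitor matrix Gla protein (0.961 and 0.975). Those of Dkk3 were Fgfrl1 (0.887 and 0.968) and Slc29a1 (0.875 and 0.8). The closest genes to Wnt5a (Gnao1 and Trub2), Wnt5b (Magee1 and Lsm2) and Sfrp4 (En1 and Mkrn2) had Pearson's r of 0.803 to 0.89.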

How the data were processed

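Per the labels, the 15 libraries came from total RNA harvested with Trizol; they were grouped by labelled treatment. The authors deposited raw read counts per gene and FPKM values; the FPKM values equal count over gene length and 1 number per library (largest relative deviation 5.1e-15). The sources used here do not give aligner, counter, strandedness or build, so overlapping genes or close copies may share reads. An empty line in each file was not analysed here.

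Counts were filtered with filterByExpr by group, scaled by TMM (trimmed mean of M values) and fitted in edgeR 4.0.16 (R 4.3.3) with 1 term per group; the quasi-likelihood F test was robust, and p-values were adjusted by Benjamini-Hochberg over 14147 genes. SE came from the fold change and F statistic, and 95% intervals from both. DESeq2 1.42.0, RLE scaling, no low-count filter, fits of only the groups compared, a replicate block and leaving out each library were alternatives. The code was tested on simulated data. Likeness is the correlation of log2 CPM (prior count 3) among genes of at least 2 CPM with a settled symbol.

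The members and the lists were chosen with earlier results of these data known. All members are named; of other pathway genes, those called. Replicates differed by more than sampling noise (chi-square per degree of freedom at least 7.66), and none was merged. Replicate numbers, taken from the sample titles, were held to pair libraries where all 3 same-numbered deviations correlated above 0.1, as in the comparisons of stress with control (0.27 to 0.40) and of Ddx5 siRNA cells with and without stress (0.25 to 0.59). The Ddx5 siRNA against control comparison and the replicate number test were added after the data were seen.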

Additional observations from a re-analysis of the deposited data

Results flagged for a closer look

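For Sfrp2, the effects of the Ddx5 siRNA with and without stress pointed in opposite directions, without overlap of the groups compared. All 3 Ddx5 siRNA plus stress libraries were below all stress libraries, and all 3 Ddx5 siRNA libraries were above all control siRNA libraries. Without stress the closest pair was at 227 against 226 CPM. Neither effect passed on its own (edgeR adjusted p = 0.13 with and 0.23 without stress). The difference between these effects was −1.40 on the log2 scale, which did not pass over all genes (edgeR adjusted p = 0.14). Such opposite, non-overlapping groups occurred in 140 of 14147 genes tested (0.99%), and Sfrp2 was the only member among them. The reference group under stress had no siRNA, so siRNA treatment and Ddx5 knockdown cannot be told apart here. In the stress effects, no member showed this pattern, as did 0.29% of genes tested.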

How the results depend on the processing

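The call of Sfrp2 in control siRNA against control held under every alternative run. DESeq2 called 1 member each in Ddx5 siRNA against control siRNA (Sfrp1), Ddx5 siRNA plus stress against stress (Sfrp2) and the difference of these effects (Sfrp2), where edgeR called 0; leaving out Ddx5 siRNA replicate 1 also gave 1 in the last (range 0 to 1). With the control siRNA libraries left out, a choice made after the values were seen, the replicate number called 3 members, against 0. The cause was not tested in any of these. Of the other pathway genes, the Ror2 call held in each fit with 1 library left out, and the other calls ended in some of these fits, as given beside them. Depth limits Frzb, Dkk1 and Dkk2. All groups have 3 libraries, and the 95% intervals of Sfrp1 and Axin2 are the widest among the members in the comparisons of group pairs. These intervals are from the fit without a replicate block, and in both genes replicate 1 stood apart in 4 of 5 groups.

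Counts over all genes moved more. For Ddx5 siRNA plus stress against stress, 4 genes were called, against 18 with RLE scaling, 16 without the low-count filter and 0 in a fit of only those groups. Fits of only the groups compared called 23 genes for Ddx5 siRNA plus stress against Ddx5 siRNA (169 otherwise) and 1394 for control siRNA against control (547). DESeq2 called 537 for stress against control, 401 for Ddx5 siRNA against control siRNA, 160 for Ddx5 siRNA plus stress against stress, 369 for it against Ddx5 siRNA, 1073 for control siRNA against control, and 4 and 118 for the differences of the stress and Ddx5 siRNA effects.

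A replicate block over all libraries called 366 genes for stress against control, 417 for Ddx5 siRNA against control siRNA, 30 for Ddx5 siRNA plus stress against stress, 1173 for control siRNA against control and 26 for the difference of Ddx5 siRNA effects. Within only the groups compared, the block called 1683 (941 higher and 742 lower, against 150 and 49) for stress against control, 0 for Ddx5 siRNA against control siRNA, 1 for Ddx5 siRNA plus stress against stress, 1570 for control siRNA against control, 985 (641 higher and 344 lower, against 149 and 20) for Ddx5 siRNA plus stress against Ddx5 siRNA, and 11 for the difference of Ddx5 siRNA effects. The block changed no member's call; it turned uncalled values near 0, to −0.07 and, within the groups compared, −0.05 for Sfrp4 under stress, 0.00 for Dkk3 in Ddx5 siRNA plus stress against stress, 0.08 in both fits for Sfrp1 and 0.00 for Wnt5a in Ddx5 siRNA plus stress against Ddx5 siRNA, and 0.00 for Axin2 in the difference of stress effects. Where the numbers do not pair the libraries, correlations of same-numbered deviations were −0.18 to 0.03 (Ddx5 siRNA against control siRNA), 0.05 to 0.31 (Ddx5 siRNA plus stress against stress) and 0.07 to 0.09 (control siRNA against control).

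With 1 library left out, all genes called ranged from 81 to 157 for stress against control, 1 to 645 for Ddx5 siRNA against control siRNA, 0 to 7 for Ddx5 siRNA plus stress against stress, 61 to 187 for it against Ddx5 siRNA, 166 to 392 for control siRNA against control, 0 to 2 for the difference of stress effects and 0 to 44 for that of Ddx5 siRNA effects. Uncalled log2 fold changes crossed 0. For stress against control they ranged from −0.23 to 0.13 (Wnt5a), −0.43 to 0.24 (Axin2), −0.27 to 1.48 (Sfrp1), −0.05 to 0.34 (Sfrp2), −0.37 to 0.18 (Sfrp4) and −0.09 to 0.06 (Dkk3). For Ddx5 siRNA against control siRNA the ranges were −0.10 to 0.11 (Wnt5a) and −0.26 to 0.49 (Sfrp4), and for control siRNA against control 0.00 to 0.35 (Wnt5a). For Ddx5 siRNA plus stress against stress they were −0.02 to 0.47 (Wnt5a), −0.52 to 0.11 (Axin2), −0.24 to 0.94 (Sfrp1) and −0.07 to 0.07 (Dkk3), and against Ddx5 siRNA −0.28 to 0.21 (Wnt5a), −0.32 to 0.31 (Axin2), −0.52 to 0.81 (Sfrp1) and −0.47 to 0.42 (Sfrp4). For the difference of stress effects they were −0.21 to 0.29 (Wnt5a), −0.38 to 0.26 (Wnt5b), −0.26 to 0.43 (Axin2), −1.55 to 0.35 (Sfrp1), −0.11 to 0.37 (Sfrp2), −0.48 to 0.41 (Sfrp4) and −0.13 to 0.03 (Dkk3), and for that of Ddx5 siRNA effects −0.05 to 0.44 (Wnt5a).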
